A study of Homo sapiens with 16 samples.

Results

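The genes described here are 10 Krueppel-like factors: KLF2, KLF3, KLF4, KLF5, KLF6, KLF9, KLF10, KLF11, KLF13 and KLF16. They were selected on their symbol, all 10 were present in all 4 of the authors' deposited tables, and together they are 10 of 23396 genes in any table. The family was chosen by the log2 fold change of KLF2 with siRNA against RFX7, which was high, so every value of that contrast is given below as a description, and counts past the authors' threshold there support nothing. That choice had no numeric threshold. The data were poly(A) RNA-seq of U2OS, a human osteosarcoma cell line with functional p53, in 16 libraries: 4 groups of 4. The groups were a control siRNA (siControl) with DMSO solvent, siControl with 10 µM Nutlin-3a, siRFX7 with DMSO, and siRFX7 with 10 µM Nutlin-3a, each treated for 24 h. Nutlin-3a keeps MDM2 from p53, which then accumulates, and RFX7 is a winged-helix transcription factor that acts downstream of p53. The labels give neither the siRNA sequences nor whether libraries of a group came from separate cultures, so p-values measure only the spread between these libraries.

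Krueppel-like factors are transcription factors whose carboxy-terminal zinc fingers bind GC-rich DNA and CACCC boxes, while their amino-terminal parts recruit different partners. KLF2, KLF4, KLF5 and KLF6 mostly activate transcription with the help of acetyltransferases, KLF9, KLF10, KLF11, KLF13 and KLF16 recruit the SIN3A corepressor, and KLF3 recruits the corepressor CtBP. KLF2 is best known from endothelial cells under shear stress and from resting lymphocytes, where it restrains growth and inflammation.

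The authors' deposited tables hold 4 comparisons of 2 groups each, with 19511 to 23353 genes, and no value of a single library, so errors are the authors' standard errors (SE) of a log2 fold change. Base means, the mean normalised counts over the 8 libraries of a comparison, summed to between 27946376 and 35311111. RFX7 itself was lower with siRFX7, with log2 fold changes of -2.42 ± 0.07 under DMSO and -2.37 ± 0.07 under Nutlin-3a per the authors' deposited tables. CDKN1A, the p53 target that encodes the p21 inhibitor, rose with Nutlin-3a by 3.24 ± 0.04 in siControl and by 2.98 ± 0.04 in siRFX7 per the authors' deposited tables (authors' DESeq2 adjusted p stored as 0 in both). Osteoblast lineage markers were present in part, 6 of 9 with a base mean from 100 per the authors' deposited table for siControl, COL1A1 at 39039. In the same table COL1A2 had only 13.2 and BGLAP 4.25, and IBSP was not listed. Defining endothelial markers were near 0 (VWF 17.8 at most, CDH5 8.07 at most, PECAM1 2.66 in 1 table, KDR not listed), although the endothelial factor gene ERG had a base mean of 478 per the authors' deposited table for siControl. Of the blood markers PTPRC had a base mean of 5.21 in 1 table and CD3E and HBB were not listed.

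Per length of the longest transcript, KLF16, KLF10 and KLF5 were the most abundant members and KLF4 the least. The level per group was computed from the authors' deposited tables as a normalised count, on the scale of the siControl table, and divided by the length in kb of the longest GENCODE 29 transcript. In siControl with DMSO the levels per kb were 1367 for KLF16, 1305 for KLF10, 1077 for KLF5, 569.5 for KLF3, 423 for KLF6, 289.5 for KLF13, 227 for KLF2, 181 for KLF11, 119.96 for KLF9 and 8.87 for KLF4. Neighbours in this order differed by more than 2 approximate SE except KLF16 and KLF10, whose levels per kb cannot be ordered. KLF4 was the only member with a base mean under 100. In bulk RNA, fewer cells that carry a message and less of it per cell cannot be told apart.

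With the longest transcript lengths, the order shifted mainly at KLF2. Its level per kb ranked 7 of 10 in siControl under either treatment, 5 in siRFX7 with DMSO and 4 in siRFX7 with Nutlin-3a. Its share of the summed level per kb of the 10 genes went from 4.08% in siControl with DMSO and 5.47% with Nutlin-3a to 6.26% in siRFX7 with DMSO and 12.3% with Nutlin-3a. In siRFX7 with Nutlin-3a its level per kb of 693 lay within 2 approximate SE of that of KLF3, 630.3, the next gene down. KLF16 went the other way with Nutlin-3a, from rank 1 to rank 2 in siControl and from rank 2 to rank 3 in siRFX7. Not all these ranks are resolved. KLF16 lay within 2 approximate SE of KLF10 under DMSO with either siRNA. It lay as close to KLF5 in siControl with Nutlin-3a and in siRFX7 with DMSO. KLF2 lay as close to KLF13 in siControl with Nutlin-3a and to KLF6 in siRFX7 with DMSO. In siRFX7 with Nutlin-3a KLF5 stood above KLF16 by 0.108 on the log2 scale, only just past 2 approximate SE (SE of the gap 0.051). The approximate SE comes from the siControl comparison alone, so orders within siRFX7 are less certain. KLF9 stayed at rank 8 or 9 and KLF4 at rank 10 in every group. The order depends on the transcript length used: with the median transcript length KLF13 stood first in siControl with DMSO instead of sixth, and KLF10 sixth instead of second. With that length KLF2 stayed below KLF10 in every group, at 1083 against 1388 per kb in siRFX7 with Nutlin-3a. The climb of KLF2 in rank was therefore not seen with the median length.

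**Figure D1:**
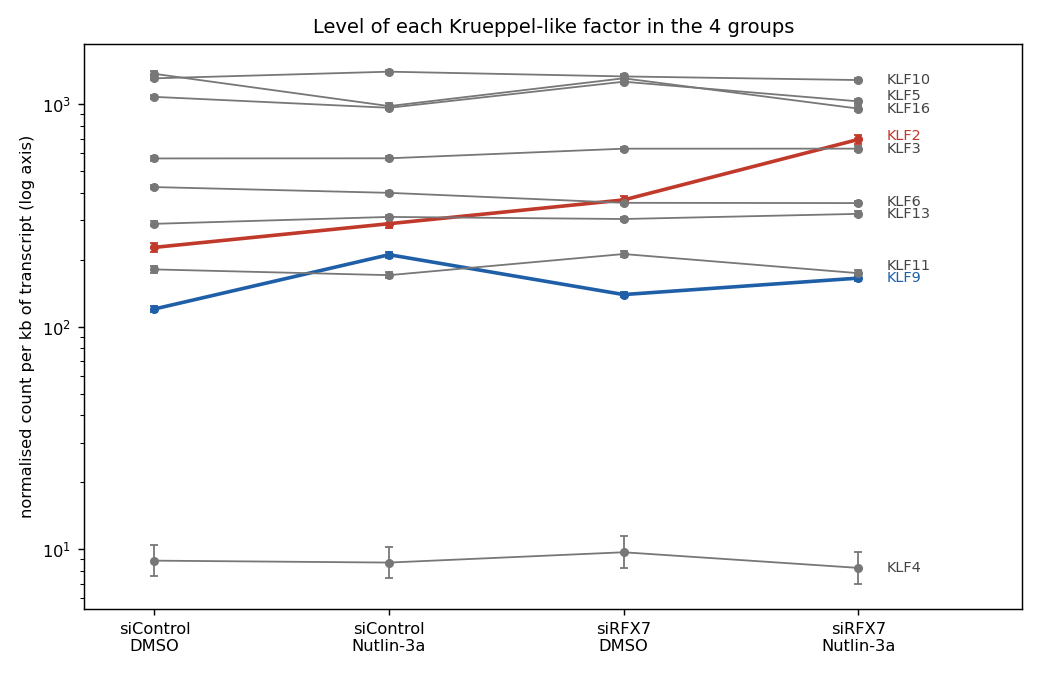
Level of each Krueppel-like factor in the 4 groups, as normalised count per kb of the longest transcript (log axis), computed from the deposited comparisons. Bars are approximate SE taken from the siControl comparison for all 4 groups, and lines join the groups of a gene. KLF2 (red) climbs from 227 to 693 per kb, KLF9 (blue) is highest in siControl with Nutlin-3a at 210.4 per kb, and KLF4 lies below 10 per kb in each group.

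KLF2 (ENSG00000127528, chromosome 19, 16324817 to 16327874, plus strand, GENCODE 29, GRCh38) had the widest range of the 10 on the log2 scale, though not in counts. The normalised count of this gene, computed from the authors' deposited tables, was 458 in siControl with DMSO, 585 in siControl with Nutlin-3a, 748 in siRFX7 with DMSO and 1399 in siRFX7 with Nutlin-3a. Each step was upward, and the last group stood 3.05-fold above the first. The sequence before its transcription start is shown because this gene carries the main pattern. It is from RefSeq, GRCh38.p14, chr19:16324576-16324825, plus strand, 250 bases 5′ to 3′ ending at the base before the start. Capitals mark a match to the word TATATA and then one to the MEF2 consensus.
KLF2 upstream: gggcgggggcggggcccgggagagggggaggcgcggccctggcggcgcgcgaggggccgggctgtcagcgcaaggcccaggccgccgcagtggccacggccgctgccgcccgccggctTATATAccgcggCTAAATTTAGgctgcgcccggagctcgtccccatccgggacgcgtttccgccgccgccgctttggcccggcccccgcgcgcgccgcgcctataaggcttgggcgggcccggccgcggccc

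Counted from the start, the capitals mark TATATA at -132 to -127 and the MEF2 consensus at -120 to -111. Only TATAAA and TATATA were searched as TATA box words. Other spellings, such as the unmarked tataag nearer the KLF2 start, were outside that search. MEF2 factors, activated by the kinase ERK5, are known to drive KLF2 through a site of this kind close to the gene's start. Among the 8 members with a promoter window in the RefSeq table (300 bases, from 250 before to 50 after the start), only KLF2 held the MEF2 consensus, which 0.572% of 35116 windows of all genes hold on either strand. The KLF2 window also held 1 GC box, was 80.7% G and C (median of all windows 58.7%) and held no RFX half-site. A match is a description of letters and says nothing of binding in these cells.

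With Nutlin-3a, KLF2 rose in siControl and in siRFX7. The authors' deposited table for siControl gave 0.35 ± 0.09 on the log2 scale (authors' DESeq2 adjusted p 4.01e-04), a 1.28-fold rise from 458 to 585. The authors' deposited table for siRFX7 gave 0.90 ± 0.06 (authors' DESeq2 adjusted p 4.70e-46), a 1.87-fold rise from 748 to 1399. Where base means reached 100, KLF2 ranked 1587 of 13525 from the highest response in siControl and 243 of 12867 in siRFX7.

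With siRFX7, KLF2 was 1.63-fold above siControl under DMSO (0.71 ± 0.08 per the authors' deposited table) and 2.39-fold above it under Nutlin-3a (1.26 ± 0.07 per the authors' deposited table). Those are the values that singled it out, ranked 161 of 13170 and 8 of 13177 from the highest where base means reached 100. The response to Nutlin-3a was greater in siRFX7 than in siControl by 0.55 ± 0.11 on the log2 scale, computed from the authors' deposited tables. This difference is the same as that between the siRFX7 effects of the treatments, so for KLF2 it is likewise a description. Against siControl with DMSO, siRFX7 with Nutlin-3a stood 1.61 higher on the log2 scale, where the single effects, which share the siControl DMSO libraries, add to 1.06.

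The 5 genes outside the family whose 4 log2 fold changes per the authors' deposited tables lay nearest to those of KLF2, by Euclidean distance over 12165 genes whose base means reached 100, were RHOB (0.408), TLR6 (0.437), ANK2 (0.558), PODXL (0.579) and B3GNT3 (0.601). RHOB encodes a small GTPase. Its values per the authors' deposited tables were 0.55 ± 0.04 with Nutlin-3a in siControl, 1.16 ± 0.04 with Nutlin-3a in siRFX7, 0.51 ± 0.04 with siRFX7 under DMSO and 1.11 ± 0.04 with siRFX7 under Nutlin-3a. As in KLF2, the level was higher with Nutlin-3a alone and with siRFX7 alone, and the response to Nutlin-3a was the greater one in siRFX7, by 0.61 ± 0.06. TLR6, a Toll-like receptor gene, had responses of 0.42 ± 0.08 in siControl and 0.58 ± 0.06 in siRFX7 per the authors' deposited tables, and their difference of 0.16 ± 0.10 did not pass (Benjamini-Hochberg adjusted p 0.954). The likeness rests on 4 values a gene, of which the 2 with siRFX7 were also used to choose KLF2. The 5 genes were picked for nearness in these same values, so a shared pattern follows from the choice and is a description. Nor are the 4 values independent, because the responses differ by the same amount as the siRFX7 effects.

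KLF9 (ENSG00000119138, chromosome 9, 70384597 to 70414624, minus strand, GENCODE 29, GRCh38) encodes a SIN3A-recruiting factor that glucocorticoids and thyroid hormone induce in many tissues. Its normalised count, computed from the authors' deposited tables, was 621 in siControl with DMSO, 1089 in siControl with Nutlin-3a, 721 in siRFX7 with DMSO and 854 in siRFX7 with Nutlin-3a. The highest group was siControl with Nutlin-3a, not siRFX7 with Nutlin-3a as for KLF2. Its upstream sequence is shown as the contrast to KLF2: RefSeq, GRCh38.p14, chr9:70414658-70414907, minus strand, 5′ to 3′ up to the base before the start. Capitals mark CCAAT boxes read on the other strand (ATTGG) and the word TATATA.
KLF9 upstream: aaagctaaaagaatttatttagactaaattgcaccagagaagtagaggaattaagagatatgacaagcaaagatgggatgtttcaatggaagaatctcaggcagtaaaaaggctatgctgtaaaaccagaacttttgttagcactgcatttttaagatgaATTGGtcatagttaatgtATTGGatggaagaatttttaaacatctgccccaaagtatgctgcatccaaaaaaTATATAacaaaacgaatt

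The CCAAT matches lie at -90 to -86 and -72 to -68 from the start and TATATA at -18 to -13. CCAAT was found on either strand in 34.6% of all 35116 windows and in those of 4 of the 8 members (KLF5, KLF6, KLF9 and KLF13), and TATAAA or TATATA in 13.7% of windows and in those of KLF2, KLF5 and KLF9. The KLF9 window was 32.7% G and C, a share below which only 2.36% of all windows fall, whereas that of KLF16 was 86.0%. Neither the MEF2 consensus nor an RFX half-site was among the letters of the KLF9 window.

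KLF9 rose with Nutlin-3a in siControl by 0.81 ± 0.06 on the log2 scale per the authors' deposited table (authors' DESeq2 adjusted p 7.65e-41), a 1.75-fold rise that ranked 374 of 13525 genes whose base mean reached 100. In siRFX7 the rise was 0.25 ± 0.07 per the authors' deposited table (authors' DESeq2 adjusted p 0.00365), or 1.19-fold. The response was smaller in siRFX7 by 0.57 on the log2 scale, a difference of -0.57 ± 0.10 with a 95% interval of -0.75 to -0.38 (normal test on the authors' deposited values, Benjamini-Hochberg adjusted p 2.25e-06). Among the 13216 genes whose base means reached 100, that difference ranked 36 from the lowest.

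The siRFX7 effect on KLF9 had opposite signs under the 2 treatments. Under DMSO KLF9 was higher with siRFX7, 0.21 ± 0.07 per the authors' deposited table, and under Nutlin-3a it was lower, -0.35 ± 0.06 per the authors' deposited table. The value under DMSO is 0.15 once the table is rescaled to equal total counts, and it then does not pass (Benjamini-Hochberg adjusted p 0.0789). Nor does it pass with Holm adjustment, so the opposite directions rest on a weak call under DMSO. As a description, in tables that share no library, 24 of 19344 genes, or 0.124%, were past an adjusted p of 0.05 in these opposite directions, KLF9 among them.

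**Figure D2:**
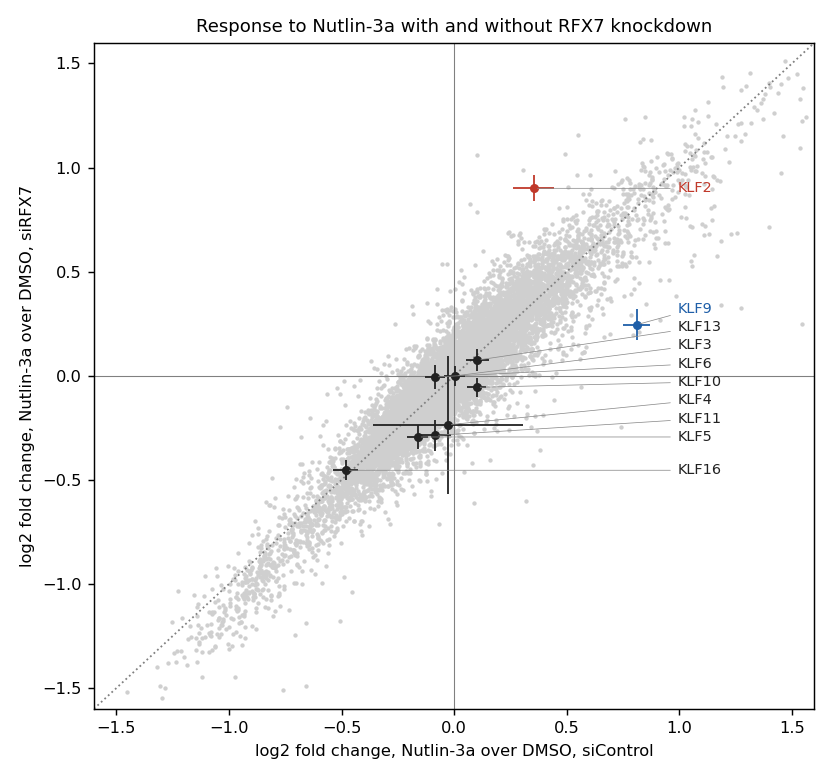
Log2 fold change with Nutlin-3a in siRFX7 (vertical) against siControl (horizontal) for the 10 genes, with SE bars, over genes with base means from 100 (grey; those beyond the axes are not drawn). KLF2 (0.35, 0.90) lies above the dotted line of equal response and KLF9 (0.81, 0.25) below it, while the others lie near it.

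**Figure D3:**
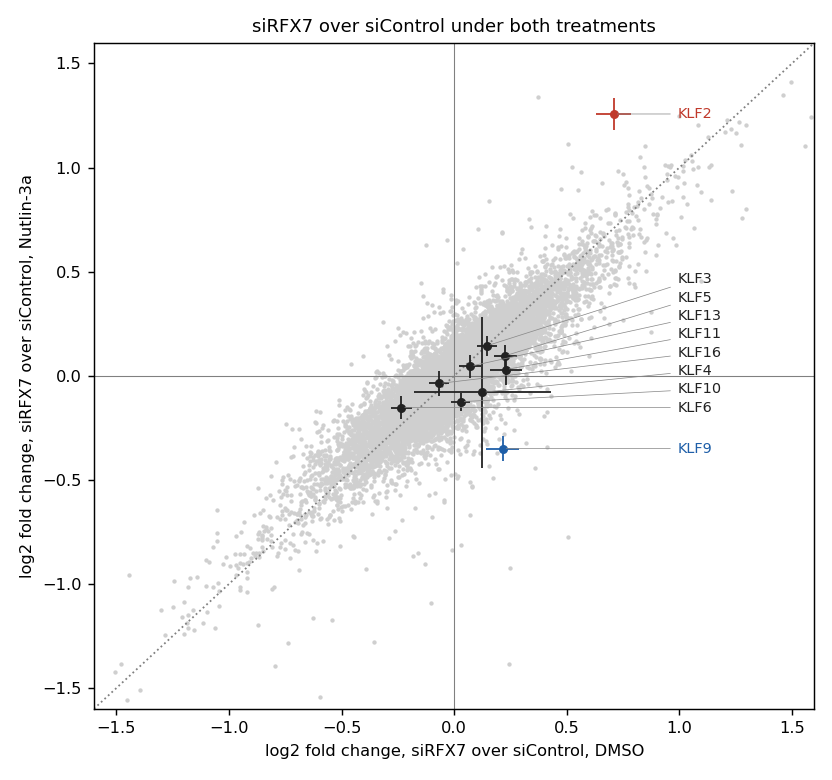
Log2 fold change with siRFX7 over siControl under Nutlin-3a (vertical) against DMSO (horizontal), drawn as in the plot of responses. KLF2 (0.71, 1.26) is apart at the upper right and KLF9 (0.21, -0.35) lies in the quadrant of opposite signs.

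Among the other activators, KLF5, which supports proliferation in the gut epithelium, fell with Nutlin-3a and KLF6, a widely expressed immediate-early factor, did not pass. The normalised count of KLF5, computed from the authors' deposited tables, was 3840.3 in siControl with DMSO, 3430.4 in siControl with Nutlin-3a, 4493 in siRFX7 with DMSO and 3667 in siRFX7 with Nutlin-3a. Both Nutlin-3a groups lay below their DMSO groups: -0.16 ± 0.05 in siControl (authors' DESeq2 adjusted p 0.00192) and -0.29 ± 0.06 in siRFX7 (authors' DESeq2 adjusted p 1.31e-06) per the authors' deposited tables. These responses did not differ detectably (-0.13 ± 0.07, 95% interval -0.28 to 0.01, Benjamini-Hochberg adjusted p 0.88). With siRFX7 the authors' deposited tables gave KLF5 0.23 ± 0.05 under DMSO and 0.10 ± 0.05 under Nutlin-3a.

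KLF6 had normalised counts, computed from the authors' deposited tables, of 1972 in siControl with DMSO, 1857 with Nutlin-3a, 1675 in siRFX7 with DMSO and 1671 with Nutlin-3a. The siRFX7 groups were the lower ones, -0.24 ± 0.05 under DMSO and -0.15 ± 0.05 under Nutlin-3a per the authors' deposited tables, the reverse of KLF2. Nutlin-3a gave -0.09 ± 0.04 in siControl and -0.01 ± 0.06 in siRFX7 per the authors' deposited tables, neither past the threshold (authors' DESeq2 adjusted p 0.117 and 0.952).

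KLF4, a reprogramming factor and the closest relative of KLF2 in its endothelial role, was nearly silent, with a normalised count of 25.0 in siControl with DMSO and 23.2 in siRFX7 with Nutlin-3a, computed from the authors' deposited tables. Its log2 fold changes per the authors' deposited tables were -0.03 ± 0.33 and -0.24 ± 0.33 with Nutlin-3a in siControl and siRFX7, and 0.13 ± 0.30 and -0.08 ± 0.36 with siRFX7 under DMSO and Nutlin-3a. Their 95% intervals reach from -0.88 to 0.72, so changes within those bounds were not detectable at this depth. It is shown as the only member whose window holds an RFX half-site (GTTGCTA, searched on both strands with GTTGCCA or GTTACCA or GTTACTA, present in 9.84% of all windows). The 30 bases around that match are from RefSeq, GRCh38.p14, chr9:107489877-107489906, minus strand, 5′ to 3′, with the match read on the other strand (TAGCAAC) in capitals.
KLF4 site: atttagctgccaTAGCAACgatggaaggga

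The match lies at -125 to -119 from the KLF4 start, and no siRFX7 effect on KLF4 exceeded its SE. GGGGCGGGG, the GC box to which SP and KLF proteins bind, was found in the windows of 6 of the 8 members (KLF2, KLF4, KLF5, KLF11, KLF13 and KLF16) and in 15.7% of all windows. The CACCC box read as GGGTGTGG was among the letters of no member's window and of 3.28% of all windows, and the cyclic AMP element TGACGTCA was in that of KLF11 and 1.85% of all windows. No 2 matches overlapped. The plot of matches by distance from the start shows this layout.

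**Figure D4:**
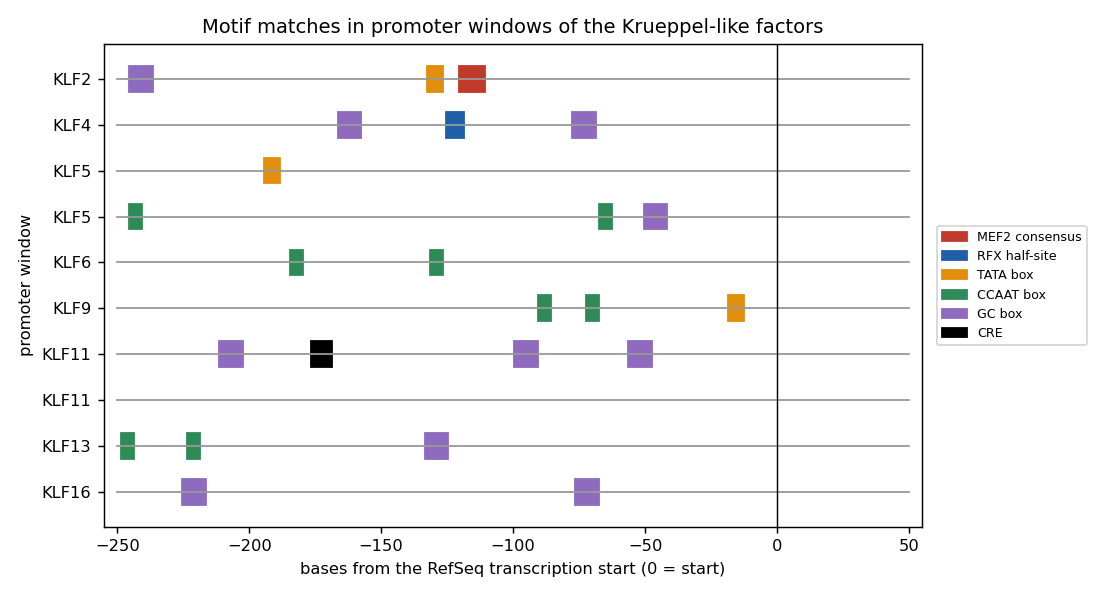
Motif matches (coloured blocks, either strand) along the promoter windows of 8 Krueppel-like factors, by bases from the RefSeq transcription start; KLF5 and KLF11 have more than 1 start. The MEF2 consensus appears in KLF2 only and the RFX half-site in KLF4 only.

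Of the other SIN3A-recruiting members, KLF16 changed most with Nutlin-3a. The normalised count of this gene, computed from the authors' deposited tables, was 3950.5 in siControl with DMSO, 2829 in siControl with Nutlin-3a, 3772 in siRFX7 with DMSO and 2757 in siRFX7 with Nutlin-3a. Both Nutlin-3a groups lay below both DMSO groups. The fall was -0.48 ± 0.06 in siControl (authors' DESeq2 adjusted p 6.19e-17) and -0.45 ± 0.05 in siRFX7 (authors' DESeq2 adjusted p 1.75e-19) per the authors' deposited tables. These responses differed by 0.03 ± 0.07, with a 95% interval of -0.12 to 0.17. With siRFX7 the authors' deposited tables gave -0.07 ± 0.05 under DMSO and -0.04 ± 0.06 under Nutlin-3a.

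KLF11, a TGF-beta-inducible repressor that is also linked to insulin gene control, fell with Nutlin-3a in siRFX7 by 0.29 on the log2 scale (-0.29 ± 0.08 per the authors' deposited table, authors' DESeq2 adjusted p 5.81e-04). In siControl its value was -0.09 ± 0.07 per the authors' deposited table (authors' DESeq2 adjusted p 0.377). The difference between these responses did not pass (-0.20 ± 0.10, Benjamini-Hochberg adjusted p 0.796). Its normalised count, computed from the authors' deposited tables, was highest in siRFX7 with DMSO, at 854, against 729 in siControl with DMSO, 686 in siControl with Nutlin-3a and 701 in siRFX7 with Nutlin-3a.

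KLF13, which controls chemokine expression in T cells, passed the threshold in none of the 4 comparisons. The normalised count of this gene, computed from the authors' deposited tables, ranged from 1976 in siControl with DMSO to 2191 in siRFX7 with Nutlin-3a. Its log2 fold change with Nutlin-3a was 0.10 ± 0.05 in siControl per the authors' deposited table (authors' DESeq2 adjusted p 0.101), and it passes when the table is centred on its median gene (Benjamini-Hochberg adjusted p 0.0294) or rescaled to equal total counts (0.0161).

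KLF10, an early TGF-beta response gene on chromosome 8, had the highest counts. Its normalised count, computed from the authors' deposited tables, was 4773 in siControl with DMSO, 5114 in siControl with Nutlin-3a, 4869 in siRFX7 with DMSO and 4689.7 in siRFX7 with Nutlin-3a. It rose with Nutlin-3a in siControl by 0.10 ± 0.04 per the authors' deposited table (authors' DESeq2 adjusted p 0.0495), just past the threshold, and had -0.06 ± 0.05 in siRFX7 (authors' DESeq2 adjusted p 0.373). With siRFX7 it was 0.03 ± 0.04 under DMSO and -0.12 ± 0.04 under Nutlin-3a per the authors' deposited tables. The difference of responses, -0.16 ± 0.06, did not pass (Benjamini-Hochberg adjusted p 0.439).

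KLF3, the CtBP-recruiting repressor, showed no detectable response to Nutlin-3a. The normalised count of this gene, computed from the authors' deposited tables, was 2917 and 2921 in siControl with DMSO and Nutlin-3a, and 3227 and 3228 in siRFX7. The responses were 0.00 ± 0.05 per both of the authors' deposited tables, with 95% intervals of -0.09 to 0.09 in siControl and -0.10 to 0.09 in siRFX7. With siRFX7 it was 0.15 ± 0.05 higher under DMSO and 0.14 ± 0.05 higher under Nutlin-3a per the authors' deposited tables. Once the tables are rescaled to equal total counts these values are 0.08 and 0.09, and neither passes.

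Counted over the 10 genes with Nutlin-3a in siControl, 5 passed an adjusted p of 0.05 per the authors' deposited table, 3 higher (KLF2, KLF9 and KLF10) and 2 lower (KLF5 and KLF16), where 37.9% of all genes passed, 18.3% higher and 19.6% lower. In siRFX7 5 passed per the authors' deposited table, 2 higher (KLF2 and KLF9) and 3 lower (KLF5, KLF11 and KLF16), against 39.1% of all genes, 18.7% higher and 20.3% lower. These counts are near the background, and the members' median log2 fold changes of -0.01 and -0.03 lie beside 0.01 for all genes in both tables. Shares of all genes, here and below, include genes of low count, which pass less easily. In siControl 13525 of 23353 genes had a base mean from 100, as did 9 of the 10 members. Shares among genes of like count are not given. The difference of responses passed for 2 of the 10, KLF2 higher and KLF9 lower, where 0.937% of 21339 genes passed, 0.173% higher and 0.764% lower. KLF2 was chosen on the same libraries, which leaves KLF9 as 1 of the other 9. The median difference was -0.08 over the members and 0.00 over all genes.

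With siRFX7 under DMSO 6 members were past the threshold per the authors' deposited table, KLF2, KLF3, KLF5, KLF9 and KLF11 higher and KLF6 lower, beside 37.4% of all genes, 19.9% higher and 17.5% lower. Under Nutlin-3a 5 were past it per the authors' deposited table, KLF2 and KLF3 higher and KLF6, KLF9 and KLF10 lower, beside 32.6% of all genes, 17.2% higher and 15.4% lower. The rule used this contrast, so nothing is read from these counts. Requiring a size of at least 0.5 on the log2 scale leaves KLF2 alone in both.

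**Figure D5:**
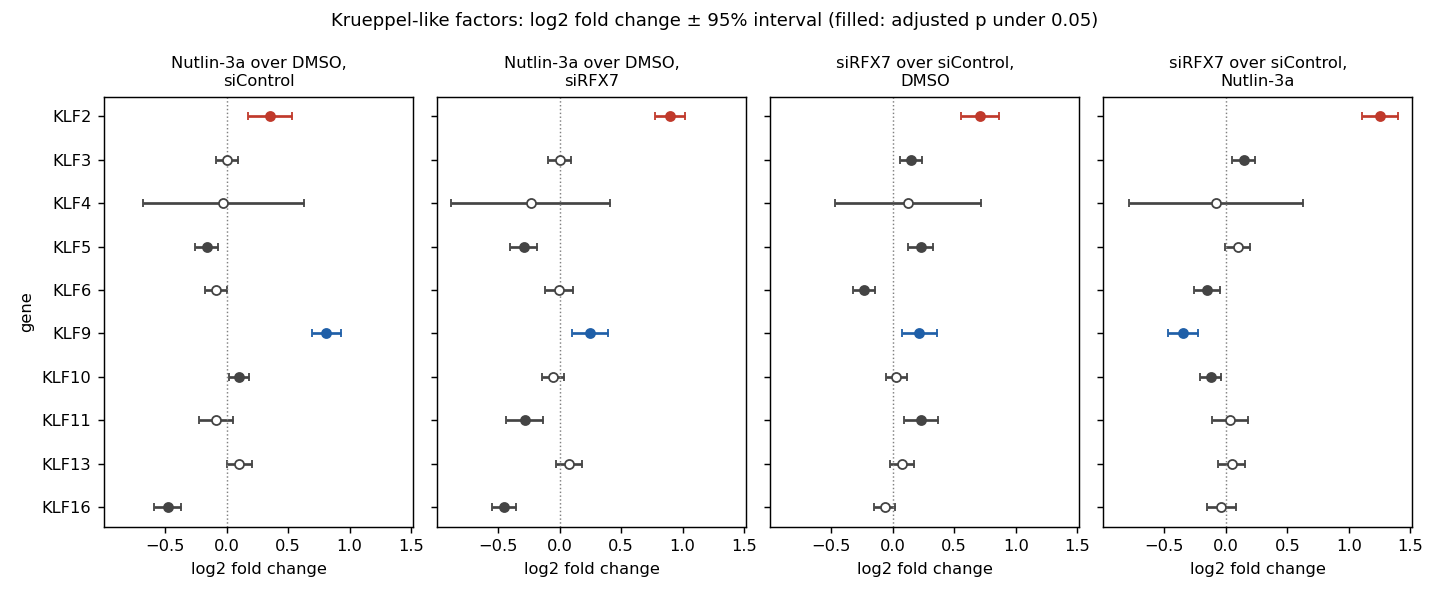
Log2 fold change with its 95% interval for each of the 10 genes in the 4 deposited comparisons, on a common axis; filled points passed an adjusted p of 0.05. KLF2 (red) lies right of 0 in all 4 panels, KLF9 (blue) lies left of 0 only in the last panel, and KLF16 is at -0.48 and -0.45 with Nutlin-3a and near 0 with siRFX7.

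Of the 18 human KLF symbols, 16 were in all 4 of the authors' deposited tables and KLF1 and KLF18 were not listed. The 6 that are not described above were KLF7, KLF8, KLF12, KLF14, KLF15 and KLF17. With Nutlin-3a in siControl, KLF14 (0.89 ± 0.21) and KLF12 (0.20 ± 0.06) rose and KLF17 (-0.81 ± 0.33) fell per the authors' deposited table, while KLF7 (-0.03 ± 0.05), KLF8 (0.89 ± 0.53) and KLF15 (-0.03 ± 0.22) did not pass. In siRFX7 the authors' deposited table gave KLF14 0.86 ± 0.27 and KLF17 -1.14 ± 0.37, both past the threshold, and KLF12 0.14 ± 0.09, which did not pass. KLF14, an imprinted relative of KLF16, and KLF17 had base means of 57.2 and 21.5 per the authors' deposited table for siControl. With siRFX7 KLF7 was higher by 0.18 ± 0.05 under DMSO and by 0.14 ± 0.05 under Nutlin-3a per the authors' deposited tables. None of the 6 passed in the difference of responses.

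The SP proteins are the nearest relatives of the family and bind the same GC boxes. Of 9 SP symbols 6 were present, and 5 of these fell with Nutlin-3a per both of the authors' deposited tables, where 19.6% of all genes fell in siControl and 20.3% in siRFX7. In siControl the values per the authors' deposited table were -1.17 ± 0.16 for SP8, -0.50 ± 0.07 for SP4, -0.36 ± 0.07 for SP2, -0.32 ± 0.04 for SP1 and -0.28 ± 0.04 for SP3, and SP6 (-0.08 ± 0.08) did not pass. The SP median of -0.34 in siControl and -0.40 in siRFX7 stands beside 0.01 for all genes in both, and -0.01 and -0.03 for the 10 Krueppel-like factors. With siRFX7 only SP2 was past the threshold, at 0.42 ± 0.07 under DMSO and 0.30 ± 0.06 under Nutlin-3a per the authors' deposited tables. None of the 6 passed in the difference of responses.

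Of 8 corepressors that Krueppel-like factors recruit, 6 fell and 1 rose with Nutlin-3a in siControl, and 7 fell and 1 rose in siRFX7, per the authors' deposited tables. Of all genes 19.6% fell and 18.3% rose in siControl, and 20.3% fell and 18.7% rose in siRFX7. SAP30, a SIN3 complex subunit, had -0.71 ± 0.09 in siControl and -0.59 ± 0.10 in siRFX7, HDAC2 had -0.35 ± 0.04 in both, and SIN3A had -0.28 ± 0.04 and -0.37 ± 0.04 per the authors' deposited tables. SIN3B was the one that rose, by 0.11 ± 0.05 and 0.15 ± 0.05 per the authors' deposited tables. Their median was -0.19 in siControl and -0.22 in siRFX7, beside 0.01 for all genes. With siRFX7 4 of 8 were higher and 1 lower under DMSO and 3 were higher and 2 lower under Nutlin-3a, beside 37.4% and 32.6% of all genes past the threshold, with CTBP1 among the higher ones (0.31 ± 0.04 and 0.20 ± 0.05 per the authors' deposited tables). None of the 8 passed in the difference of responses.

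The route from the kinase ERK5 through MEF2 to KLF2 had 10 genes in the list used, all present. With Nutlin-3a 2 rose and 3 fell in siControl, and 1 rose and 5 fell in siRFX7, per the authors' deposited tables. MEF2C fell in both (-0.61 ± 0.11 and -0.76 ± 0.12 per the authors' deposited tables), MAPK7, which encodes ERK5, fell (-0.17 ± 0.06 and -0.24 ± 0.06), and its activating kinase MAP2K5 rose (0.26 ± 0.07 and 0.19 ± 0.07). HDAC4, which represses MEF2, rose in siControl (0.88 ± 0.25, base mean 45.7) per the authors' deposited table. Of all genes 37.9% passed in siControl and 39.1% in siRFX7, and the siControl count of 5 of 10 is near that share. With siRFX7 3 were higher and none lower under DMSO, and 1, MAP3K3, was higher under Nutlin-3a (0.18 ± 0.05 per the authors' deposited table), beside 19.9% and 17.2% of all genes higher. The median siRFX7 effect was 0.13 under DMSO and 0.05 under Nutlin-3a, beside 0.00 and -0.01 for all genes, and none of the 10 passed in the difference of responses.

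Ubiquitin ligases that mark Krueppel-like factors for degradation rose in 3 of 5 cases with Nutlin-3a in each of the authors' deposited tables, and 1 fell in siRFX7, where 18.3% of all genes rose in siControl and 18.7% in siRFX7. FBXW7, which targets KLF2 and KLF5, rose by 0.77 ± 0.06 in siControl and 0.69 ± 0.05 in siRFX7 per the authors' deposited tables. WWP1, a ligase for KLF5 and KLF2, rose by 0.12 ± 0.05 and 0.24 ± 0.06 and SMURF2 by 0.14 ± 0.04 and 0.15 ± 0.04 per the authors' deposited tables. With siRFX7 3 of 5 were higher under DMSO and 4 of 5 under Nutlin-3a, none lower, with medians of 0.23 and 0.16, beside 19.9% and 17.2% of all genes higher and all-gene medians of 0.00 and -0.01. The median response to Nutlin-3a was 0.12 in siControl and 0.15 in siRFX7, beside 0.01 for all genes, and none of the 5 passed in the difference of responses.

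Endothelial and lymphocyte genes that KLF2 or KLF4 is known to control were higher in some cases and lower in others with siRFX7. Of 11 in the list, 7 were present in all 4 of the authors' deposited tables. With siRFX7 1 was higher and 3 were lower under DMSO, and 1 was higher and 2 were lower under Nutlin-3a, beside 37.4% and 32.6% of all genes past the threshold. Their medians were -0.02 and 0.11, beside 0.00 and -0.01 for all genes. NOS3, the endothelial nitric oxide synthase, was lower at -0.40 ± 0.08 and -0.19 ± 0.07, and so was ASS1, an arginine synthesis enzyme, at -0.45 ± 0.09 and -0.35 ± 0.08, per the authors' deposited tables. TEK, an angiopoietin receptor gene, was higher at 0.57 ± 0.13 and 0.61 ± 0.16 per the authors' deposited tables. THBD, the thrombomodulin gene, had a base mean of at most 16.5 in the tables of all 4 comparisons.

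With Nutlin-3a 1 of 8 targets rose and 2 fell in siControl, and 2 of 7 rose and 1 fell in siRFX7, per the authors' deposited tables, near the 37.9% and 39.1% of all genes that passed. ASS1 rose in both (0.96 ± 0.07 and 1.06 ± 0.10), TEK fell in both (-0.45 ± 0.15 and -0.40 ± 0.14), and ADM, the adrenomedullin gene, fell in siControl (-0.40 ± 0.09) per the authors' deposited tables. The medians were -0.10 in siControl and 0.20 in siRFX7, beside 0.01 for all genes in both, and none passed in the difference of responses. Of the epithelial markers, CDH1 was higher with siRFX7 (0.85 ± 0.13 under DMSO and 1.10 ± 0.12 under Nutlin-3a) and so was EPCAM (0.54 ± 0.11 and 0.41 ± 0.11) per the authors' deposited tables, beside the higher KLF2. Of 4 epithelial markers 2 were past the threshold in each of these tables, beside 37.4% and 32.6% of all genes, so nothing is read from this count. KRT14 (0.26 ± 0.22 and 0.39 ± 0.18 per the authors' deposited tables) did not pass, and KRT5 was not listed. The base means of the 3 listed summed to 412 and 422. The part of these markers in the result was not tested.

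Messages of several members are short-lived, and AU-rich words in 3′ UTRs mark many such messages. Per kb of 3′ UTR in GENCODE 29, ATTTA occurred 3.56 times in KLF2, 3.02 in KLF5, 2.58 in KLF11, 2.52 in KLF9, 2.23 in KLF10, 2.22 in KLF4, 2.12 in KLF3, 1.69 in KLF6, 0.971 in KLF16 and 0.893 in KLF13, beside a median of 1.65 over 13666 genes. KLF2 had the highest density of the 10, from 3 copies in 843 bases. The words GTATCTA and GACGTA were counted because an earlier account of these data named them. GTATCTA occurred once in KLF9 and once in KLF10, and in the 3′ UTR of 7.72% of genes, and GACGTA in that of no member and 4.58% of genes. Their part in the members' values was not tested.

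Some values carry an uncertainty of counting. KLF3 overlaps KLF3-AS1, KLF11 overlaps AC104794.4, and KLF16 overlaps AC012615.3 and AC012615.4, all on the opposite strand, and the processed pseudogene UBE2CP4 lies within KLF13 on the same strand. Whether the authors' counting used strand is not given in the sources used here, so reads of these pairs may not be separated.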

How the data were processed

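Poly(A) RNA-seq was made from 500 ng of total RNA with a TruSeq stranded mRNA kit, per the labels' protocols. Per the submitters' processing notes, the tools were bcl2fastq 2.19.1.403, Trimmomatic 0.39, FastQC 0.11.9, cutadapt 2.10, SAMtools 1.10, Picard, featureCounts 1.6.5 and DESeq2 1.20.0, with build hg38; the aligner and annotation are not given in the sources used here. The 16 samples were grouped by title, 4 to a group. The files were 4 tables, each a comparison of 4 against 4 libraries. Per the file headers, the authors deposited for each gene a base mean (a signal: the mean normalised read count), a log2 fold change with its standard error, a Wald statistic (a score), a p-value and an adjusted p-value. The deposited values were used unchanged and no count model was fitted.

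Directions were settled from closure over 19344 genes (correlation of the paired differences 0.9999, gap SD 0.00291, against 0.514 with tables inverted) and from RFX7, CDKN1A and MDM2 (2.89 ± 0.04 and 2.76 ± 0.04 with Nutlin-3a per the authors' deposited tables). The depth of single libraries is unknown. The threshold was an adjusted p of 0.05, the authors' DESeq2 Benjamini-Hochberg value. The difference of responses was the log2 fold change with Nutlin-3a in siRFX7 minus that in siControl, which share no library. It had a two-sided normal test and Benjamini-Hochberg adjustment over 21339 genes. A run on simulated data drew normal noise of the deposited SE, as the test assumes. That run could not show whether those SE suit a normal test. Group levels took siControl with DMSO from the siControl table and chained the fold changes. Approximate SE of a level is the SE of the fold change with Nutlin-3a in siControl over the square root of 2. The same value was used in all 4 groups, so the spread of the siRFX7 libraries does not enter it. Calculations used Python 3.11.15, pandas 2.3.3, numpy 2.4.6 and scipy 1.17.1. Promoter windows are from RefSeq on GRCh38.p14, transcript lengths, positions and 3′ UTRs from GENCODE 29.

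The 10 members, the gene lists (KLF, SP, corepressors, ERK5 and MEF2 route, ubiquitin ligases, KLF2 and KLF4 targets, cell type markers) and the tests were chosen with earlier results of these data known. Named genes were all members and all other KLF and SP genes present, RFX7, CDKN1A and MDM2, per list those called in the difference and at most the 4 of largest change in each comparison, and the 5 genes nearest to KLF2. Alternatives were other thresholds, scalings, a base mean minimum, Holm adjustment, every KLF symbol and another transcript length. Some of the blood markers are not reported here.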

Additional observations from a re-analysis of the deposited data

Results flagged for a closer look

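The response to Nutlin-3a was set apart between siRFX7 and siControl for 2 members and for 1 gene used as a check of the labels. For KLF2 the response was higher in siRFX7 by 0.55 ± 0.11 on the log2 scale, computed from the authors' deposited values, with a rise in both siRNA groups. This gene was chosen on the siRFX7 contrast, so its value is a description. For KLF9 the difference was -0.57 ± 0.10 (Benjamini-Hochberg adjusted p 2.25e-06 by the normal test), from a rise of 0.81 in siControl to one of 0.25 in siRFX7. For CDKN1A it was -0.26 ± 0.05 (Benjamini-Hochberg adjusted p 3.05e-04), from 3.24 to 2.98. For KLF9 and CDKN1A the response was upward in both siRNA groups and smaller with siRFX7. Under Nutlin-3a the siRFX7 effects on their levels differed in direction. There KLF9 was lower with siRFX7 (-0.35 ± 0.06 per the authors' deposited table). Under DMSO KLF9 was higher with siRFX7 (0.21 ± 0.07 per the authors' deposited table), a weak call. CDKN1A was higher with siRFX7, by 0.60 ± 0.04 under DMSO and by 0.33 ± 0.04 under Nutlin-3a per the authors' deposited tables.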

How the results depend on the processing

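KLF9 passed in the difference of responses under each of 9 alternatives, as did KLF2, which was chosen on the same libraries, so that its passing is no support. Several alternatives could hardly change that call. The difference of the siRFX7 effects is the same quantity, and counting every KLF symbol leaves the test of a gene as it was. Total-count scaling moves both responses by similar amounts (shifts of -0.039 in siControl and -0.046 in siRFX7), so these passes add little. The counts of members past the threshold were less stable, and no member reversed its direction past the threshold in any alternative run. A size of at least 0.5 left 1 member in each of the 4 comparisons, against 6 with siRFX7 under DMSO and 5 in each of the others. Holm adjustment left 2 with siRFX7 under DMSO, 2 with siRFX7 under Nutlin-3a, 2 with Nutlin-3a in siControl and 3 with Nutlin-3a in siRFX7. An adjusted p under 0.01 left 3 with siRFX7 under Nutlin-3a. The shares of all genes at these stricter settings are not given, so nothing is read about the members from the smaller counts. Over every KLF symbol 8 of 16 passed with Nutlin-3a in siControl, beside 37.9% of all genes. The summed level per kb in siControl with DMSO was 5567, and 17340 with median transcript lengths. Scaling to equal total counts moved 3 single calls out and 2 in, and centring moved 1 in.

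No paired analysis was possible because the deposited tables hold no value of a single library. Likewise no library was left out and none was checked as outlying. KLF4, with a base mean between 19.2 and 24.7, is limited by depth. The levels rest on chained comparisons and on the choice of transcript length.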
